A study of Mus musculus with 11 samples.

Results

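This comparison asked what changed in the rectal mucosa of mice of one mutant genotype when they were given tamoxifen by gavage in place of NaCl. It set 4 arrays labelled mutant and tamoxifen against 4 arrays labelled mutant and NaCl, 8 of the 11 arrays of the series, over all 19944 genes that could be named from a single gene symbol. The mutant mice carry the α6ΔIEC-TAM design, in which tamoxifen is given to induce deletion of Itga6, the gene for integrin α6, in intestinal epithelial cells. Both mutant groups carry this design, and the labels do not give the promoter that drives the recombinase. Gavage began at 8 weeks of age with tamoxifen suspended in saline, which the labels give as 2 doses of 10 mg per day on every other day of 5 days, and the NaCl group received NaCl instead. Tissue came from mice aged 10 weeks, 15 days from the start of gavage. In each mutant group 1 of 4 mice was male. The remaining 3 arrays came from wild-type control mice given tamoxifen, of which 2 of 3 were male, and they are set beside the comparison where they bear on a value. Within these 8 arrays the drug and the deletion it is meant to induce change together and cannot be told apart. Single arrays are called mutant_tam, mutant_nacl or control_tam with a replicate number that only names the array.

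Tamoxifen binds oestrogen receptors and is cleared by cytochrome P450 and sulfotransferase enzymes, and in mice with a tamoxifen-activated recombinase it switches that recombinase on. Integrin α6 pairs with integrin β4 in hemidesmosomes, the anchors by which epithelium holds on to basement membrane laminin. The rectal epithelium absorbs sodium, chloride and water, secretes bicarbonate and mucus, burns short-chain fatty acids from the bacteria of the lumen, and is renewed from dividing cells at the base of its crypts.

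Each mouse gave 1 Affymetrix array (Mouse Gene 1.0 ST), all values are log2 signals, and a difference is tamoxifen minus NaCl on that log2 scale. A gene is said to have risen or fallen where limma's adjusted p was below 0.05, with the adjustment over all genes. Folds are 2 to the power of the size of the difference. Array medians lay between 7.29 and 7.35, and within a group any pair of arrays correlated at 0.988 to 0.9973. Epithelium was well represented: Epcam (-0.01) and Cdh1 (-0.04), which mark epithelial cells, had mean levels of 12.23 and 12.69 in the tamoxifen-labelled arrays, and neither difference passed the test (limma adjusted p = 0.919 and 0.521). Both were named after their values were seen, and other epithelial genes did differ. Of simple keratins 6 of 8 rose and 0 fell, and of adherens junction and desmosome genes 7 of 19 rose and 2 fell. Whether the share of epithelium differed between the groups was not tested. Markers of stratified squamous epithelium, which borders the rectum at the anus, varied from array to array in every group, with mean log2 levels over the list of 8.00 to 9.80 in the tamoxifen-labelled, 8.53 to 9.75 in the NaCl-labelled and 6.62 to 9.87 in the wild-type arrays. P-values measure the spread between these mice, and their number limits the precision.

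Itga6, the gene to be deleted, did not follow its label. It (Entrez Gene 16403, chromosome 2) had log2 levels of 11.75, 11.93, 11.84 and 11.77 in the tamoxifen-labelled arrays and 11.39, 11.28, 11.49 and 11.47 in the NaCl-labelled ones, mean 11.82 ± 0.0782 against 11.41 ± 0.0937 (SD, n = 4 each). All 4 tamoxifen-labelled values lay above all 4 NaCl-labelled values, so the signal rose where a deletion would lower it (log2 difference 0.41, SE 0.083, 1.33-fold, limma adjusted p = 0.0053). The wild-type tamoxifen arrays gave 11.15, 11.52 and 11.49, of which 1 lay below the NaCl-labelled range and 1 above it. The gene was read by a single transcript cluster, and where its probes lie relative to the deleted part is not given in the sources used here, so its level may not check the label. The groups are therefore named by their labels throughout, and each direction below is one between labels.

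Tamoxifen-labelled and NaCl-labelled mucosa differed in 4634 of 19944 genes, 23.2% of those tested. Of these 2498 rose (12.5%) and 2136 fell (10.7%), which is the background for every count below. Most differences were small. At least 1.5-fold were 334 of the genes that rose and 334 of those that fell (1.67% each), and at least 2-fold were 98 (0.491%) and 87 (0.436%). The values of both groups did not overlap in 2835 genes that were higher (14.2%) and 2509 that were lower (12.6%). The median difference over all genes was -0.01.

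**Figure D1:**
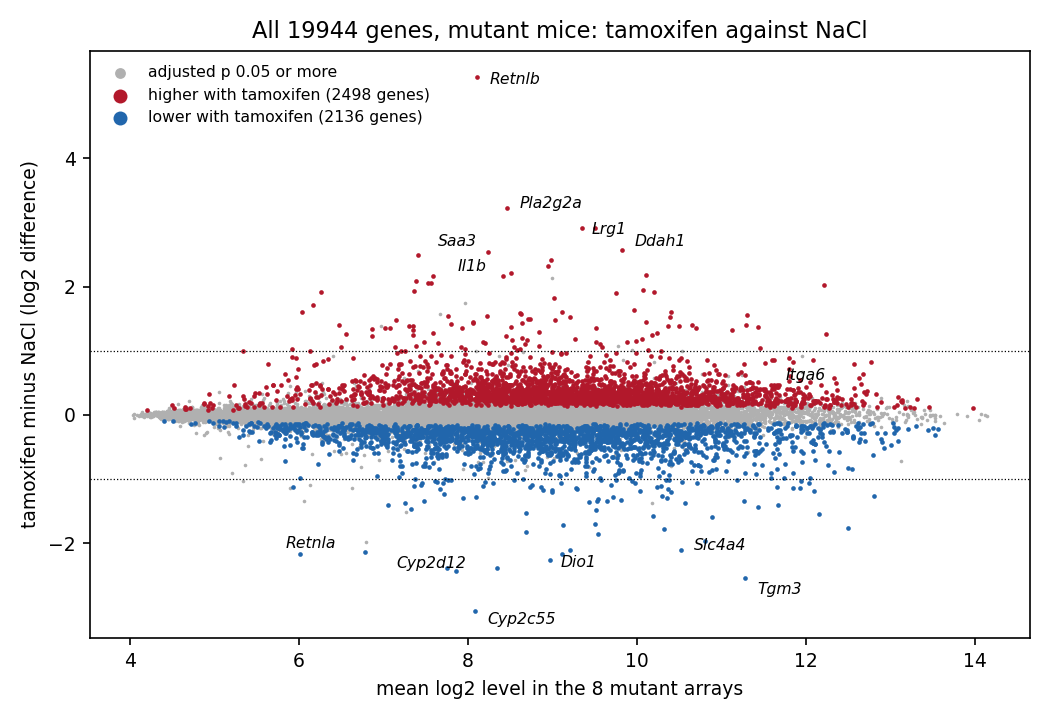
Each point is a gene, with its mean log2 level over the 8 mutant arrays on the x axis and the tamoxifen minus NaCl log2 difference on the y axis. Genes past an adjusted p of 0.05 are red (2498 higher) or blue (2136 lower), dotted lines mark a 2-fold difference, and Retnlb at 5.26 and Cyp2c55 at -3.06 lie farthest from 0.

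Retnlb showed the largest increase. It encodes resistin-like molecule β, a protein that goblet cells secrete into the gut lumen and that acts on bacteria and worms. Its levels were 11.63, 11.20, 10.25 and 9.89 in the tamoxifen-labelled arrays and 5.41, 5.98, 5.24 and 5.30 in the NaCl-labelled ones. No tamoxifen-labelled value came near a NaCl-labelled one (log2 difference 5.26, SE 0.721, 38.2-fold, limma adjusted p = 0.000746). In the wild-type tamoxifen arrays Retnlb stood at 5.17, 8.86 and 9.24, so 2 of those 3 arrays also lay well above every NaCl-labelled array. Its relative Retnla, which is made by several cell types in inflamed tissue, moved the other way. Retnla read 6.46, 5.87, 5.21 and 5.33 in the tamoxifen-labelled arrays and 7.55, 8.09, 8.02 and 7.74 in the NaCl-labelled ones (log2 difference -2.14, SE 0.333, 4.39-fold, limma adjusted p = 0.00145).

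Secreted defence and acute phase proteins followed. Pla2g2a, a secreted phospholipase that kills Gram-positive bacteria, read 10.19, 9.53, 10.19 and 10.38 in the tamoxifen-labelled arrays and 6.80, 6.74, 6.98 and 6.92 in the NaCl-labelled ones (log2 difference 3.22, SE 0.203, 9.29-fold, limma adjusted p = 1.02e-05). Lrg1, an acute phase glycoprotein, read 10.89, 10.67, 11.08 and 10.56 in the tamoxifen-labelled arrays and 7.86, 7.81, 8.10 and 7.81 in the NaCl-labelled ones (log2 difference 2.91, SE 0.114, 7.5-fold, limma adjusted p = 7.26e-07), and its 4 values in each group were close together. Saa3, an acute phase apolipoprotein, rose from a mean of 6.97 to 9.51 (2.54, 5.82-fold). Mmp7, the protease that activates defensins and cuts matrix proteins, rose by 2.49, and Il1b, the inflammatory cytokine interleukin-1β, by 2.17. The beta-defensin Defb3 had a difference of 2.09, but its values were 10.19, 10.06, 6.81 and 6.67 in the tamoxifen-labelled arrays and 6.40, 6.54, 6.46 and 5.96 in the NaCl-labelled ones, so replicates 1 and 2 stood far above the other tamoxifen-labelled arrays. Its call was lost without mutant_tam replicate 1, 2 or 3 or control_tam replicate 1, 2 or 3 or mutant_nacl replicate 1, 2 or 3 (log2 difference 1.60 to 2.41, limma adjusted p 0.0508 to 0.107).

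The other genes among the 16 largest increases had varied roles. Ddah1, which breaks down an endogenous inhibitor of nitric oxide synthesis, read 11.12, 11.15, 11.18 and 10.98 in the tamoxifen-labelled arrays and 8.40, 8.59, 8.58 and 8.59 in the NaCl-labelled ones (log2 difference 2.57, SE 0.177, 5.93-fold, limma adjusted p = 1.56e-05). Mfsd2a, a lysophospholipid transporter, rose by 2.42, and Dhrs9, a retinol dehydrogenase, by 2.18. Gcnt4 (2.16) and Mgat4c (2.32) encode glycosyltransferases that branch glycans. Slc4a11 (2.06) is a membrane transporter of the bicarbonate transporter family, Tnfrsf23 (2.06) a decoy receptor for the death ligand TRAIL, Trim15 (2.21) a tripartite motif protein, and Cwh43 (2.91) a protein linked to the processing of lipid anchors.

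**Figure D2:**
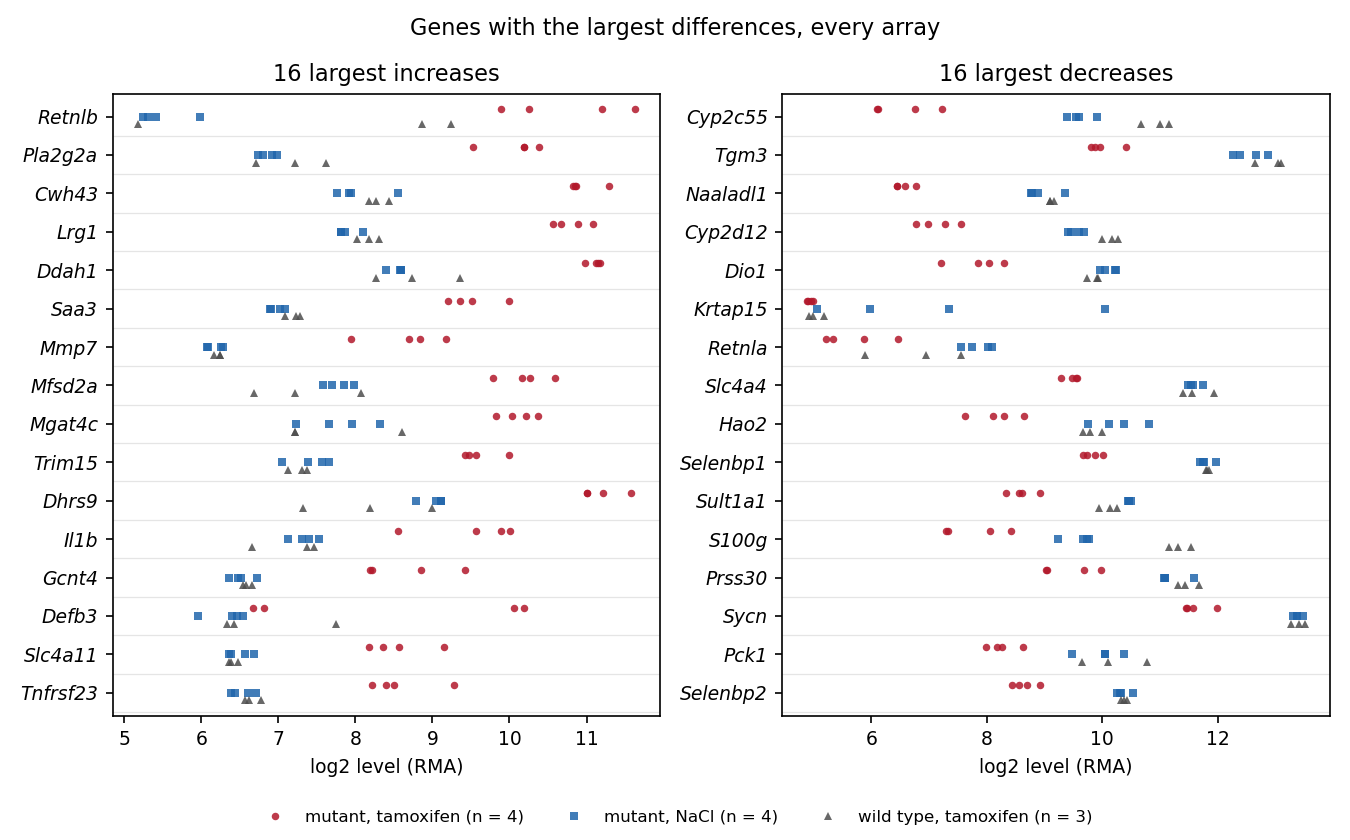
Each symbol is the log2 level of a gene in 1 array, for the 16 largest increases (left) and the 16 largest decreases (right), with mutant tamoxifen in red, mutant NaCl in blue and wild-type tamoxifen in grey. Only genes whose red and blue values did not overlap were taken, so that separation follows from the choice of the 32 genes. Retnlb in 2 wild-type arrays lies between red and blue, and Defb3 and Krtap15 are spread widely within a group.

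The largest decreases included several enzymes. Cyp2c55, a cytochrome P450 of the intestine, fell most. Its levels were 6.75, 6.10, 6.12 and 7.22 in the tamoxifen-labelled arrays and 9.39, 9.55, 9.91 and 9.59 in the NaCl-labelled ones (log2 difference -3.06, SE 0.235, 8.35-fold, limma adjusted p = 2.81e-05), while the wild-type tamoxifen arrays lay higher still between 10.67 and 11.16. Tgm3, a transglutaminase that cross-links proteins, read 9.96, 9.87, 10.41 and 9.80 in the tamoxifen-labelled arrays and 12.27, 12.66, 12.87 and 12.39 in the NaCl-labelled ones (log2 difference -2.54, SE 0.164, 5.81-fold, limma adjusted p = 1.18e-05). Naaladl1, a brush-border peptidase, read 6.44, 6.77, 6.59 and 6.45 in the tamoxifen-labelled arrays and 8.77, 8.89, 8.79 and 9.36 in the NaCl-labelled ones (log2 difference -2.39, SE 0.114, 5.24-fold, limma adjusted p = 1.19e-06). The selenium-binding protein Selenbp1, which is abundant in differentiated colonocytes, fell by 1.97 and its near copy Selenbp2 by 1.70, and since the sequences of the pair are much alike their signals may not be separate.

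Among the remaining large decreases were further enzymes: Cyp2d12 (-2.38), a cytochrome P450, Dio1 (-2.27), which activates thyroid hormone, Hao2 (-2.10), a peroxisomal hydroxyacid oxidase, Sult1a1 (-1.86), a phenol sulfotransferase, and Pck1 (-1.72), which makes phosphoenolpyruvate for glucose synthesis. Prss30 (-1.78) is a serine protease of the intestine and Sycn (-1.76), syncollin, a protein of secretory granules. The hair keratin-associated gene Krtap15 also met the rule (-2.17), with levels of 4.89, 4.98, 4.96 and 4.90 in the tamoxifen-labelled arrays and 7.34, 5.97, 5.05 and 10.04 in the NaCl-labelled ones. A single NaCl-labelled array, replicate 4, was far above all others, and the call was lost without mutant_tam replicate 1, 2, 3 or 4 or control_tam replicate 1 or 3 or mutant_nacl replicate 1, 2 or 4 (log2 difference -2.44 to -1.16, limma adjusted p 0.0563 to 0.172).

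In the antimicrobial and acute phase list 14 of 28 measured members rose, 2 fell and 12 did not pass the test, with a median difference of 0.55. Beside Retnlb, Pla2g2a, Lrg1 and Saa3, the lectin Reg4 (0.86) and the iron-binding lactoferrin Ltf (1.82) rose. Further members, named after their values were seen, were the siderophore-binding lipocalin Lcn2 (1.43), the antiprotease Slpi (1.44), lysozyme Lyz1 (1.40) and the bactericidal lectin Reg3g (1.60). The members that fell were Retnla and Pigr (-0.62), the receptor that carries IgA across the epithelium. The Saa1 and Saa2 differences were -0.31 and -0.16 and did not pass the test. With the lowest 50% of genes by mean level left out, 9 members were called as higher.

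Enzymes that make or control oxidants included Ddah1 and the Duox2 system, in which Duoxa2 (1.38) matures the epithelial oxidase Duox2 (1.00) that releases hydrogen peroxide into the lumen. In that list 5 of 17 measured members rose, 1 fell and 11 did not pass the test: the others that rose were Arg2 (0.53), a mitochondrial arginase, and Nos2 (1.45), inducible nitric oxide synthase, and the one that fell was Nos1 (-0.34), the neuronal synthase. The Nos2 values were 9.29, 9.08, 9.06 and 7.70 in the tamoxifen-labelled arrays and 7.14, 7.29, 7.17 and 7.73 in the NaCl-labelled ones, and its call was lost without mutant_tam replicate 1, 2 or 3 (log2 difference 1.26 to 1.35, limma adjusted p 0.0549 to 0.0698). The count of 5 was 3 without mutant_tam replicate 1, 2 or 3 or with robust eBayes and 8 in the 8 mutant arrays alone. Duox2 lost its call without mutant_tam replicate 1, 2 or 3 or mutant_nacl replicate 1, 2 or 4 (limma adjusted p 0.0512 to 0.0921).

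Some genes of the inflammasome and interleukin-1 family list rose. Il1b read 9.89, 8.55, 9.57 and 10.01 in the tamoxifen-labelled arrays and 7.53, 7.13, 7.30 and 7.40 in the NaCl-labelled ones (log2 difference 2.17, SE 0.293, 4.49-fold, limma adjusted p = 0.000684). The decoy receptor Il1r2 (0.99), the receptor antagonist Il1rn (0.44), Il33 (0.36) and Il1a (0.90) rose as well, and the sensor Nlrp6 (-0.74), which supports mucus secretion, fell, as did the interleukin-18 binding protein Il18bp (-0.20). In all, 5 of 22 measured members rose (22.7%), 2 fell (9.09%) and 15 did not pass the test. Over all genes the shares were 12.5% and 10.7%, so the share that fell was near the background. The count of 5 that rose was 3 without mutant_nacl replicate 2. The Il18bp call was lost without mutant_tam replicate 2 or 4 or mutant_nacl replicate 1 or 4 (log2 difference -0.20 to -0.18, limma adjusted p 0.0587 to 0.0661). Il1a lost its call without mutant_tam replicate 1 or control_tam replicate 1, 2 or 3 or mutant_nacl replicate 1, 2 or 3, and Il33 without mutant_tam replicate 3 or 4 or mutant_nacl replicate 2 or 4 (limma adjusted p 0.0587 to 0.112). Without mutant_tam replicate 4 the Il1a difference was 0.54.

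Cxcl5 and Cxcl2, chemokines that attract neutrophils through their receptor Cxcr2, were higher. Cxcl5 read 8.05, 8.29, 8.51 and 8.46 in the tamoxifen-labelled arrays and 6.19, 6.27, 6.31 and 6.82 in the NaCl-labelled ones (log2 difference 1.93, SE 0.166, 3.82-fold, limma adjusted p = 5.22e-05), and Cxcl2 (1.92) rose to a similar extent. The cytokine Tnf (0.58), the NF-κB regulator Nfkbiz (0.34) and the adhesion molecule Icam1 (0.24) also rose, while Ccl28 (-0.60), Ccl5 (-1.21) and Cxcl9 (-0.86), which attract lymphocytes, fell. In the whole list 5 of 29 measured members rose, 3 fell and 21 did not pass the test, against background shares of 12.5% and 10.7%. The count of 5 was 2 with the lowest 50% of genes left out and 3 without mutant_tam replicate 1 or 3 or mutant_nacl replicate 2, 3 or 4 or in the 6 female mutant arrays alone, and the count of 3 was 0 without mutant_tam replicate 3 or mutant_nacl replicate 1 or 2 and 1 without mutant_tam replicate 2 or 4 or with robust eBayes. Ccl5 and Ccl28 were among the calls lost, without mutant_tam replicate 1, 2, 3 or 4 or mutant_nacl replicate 1 or 2 (log2 difference -1.34 to -0.90, limma adjusted p 0.0523 to 0.0859) and without mutant_tam replicate 3 or mutant_nacl replicate 1, 2 or 4 (log2 difference -0.59 to -0.52, limma adjusted p 0.0527 to 0.087). Cxcl9 lost its call without mutant_tam replicate 2, 3 or 4 or mutant_nacl replicate 1, 2 or 4 (limma adjusted p 0.0587 to 0.128). Icam1 lost its call without mutant_tam replicate 1, 2, 3 or 4 or control_tam replicate 3 or mutant_nacl replicate 2, 3 or 4 (limma adjusted p 0.0583 to 0.153). Nfkbiz lost its call without mutant_tam replicate 1, 2 or 3 or mutant_nacl replicate 1, 2, 3 or 4 (limma adjusted p 0.053 to 0.131).

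Neutrophil markers rose in the same arrays. In that list 14 of 17 measured members rose, 0 fell and 3 did not pass the test, with a median of 0.77, and the mean over its members was 6.99 to 7.47 in the tamoxifen-labelled arrays, 6.48 to 6.56 in the NaCl-labelled and 6.53 to 6.66 in the wild-type arrays. Csf3r, the receptor for granulocyte colony-stimulating factor, had a group mean of 8.02 ± 0.182 against 7.11 ± 0.125, SD with n = 4 each, without overlap (log2 difference 0.91, SE 0.094, 1.88-fold, limma adjusted p = 0.000158). The receptor Trem3 rose by 0.55 and the gelatinase Mmp9 by 0.73. The granule genes Mpo (-0.06) and Elane (-0.04), which are expressed before neutrophils leave the marrow, and Ly6g (0.07) did not pass the test. Il1b, S100a8 and S100a9 stand on this list and on a defence list, and the part that neutrophils have in the defence values above was not tested. Most of these markers were dim: with the lowest 25% of genes left out 6 were called, and with the lowest 50% left out 1. In bulk tissue such as this, a change in the number of cells of a type and a change in RNA per cell cannot be told apart.

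Carriers of chloride and bicarbonate fell more often than they rose. In the chloride, bicarbonate and proton list 2 of 20 measured members rose, 10 fell and 8 did not pass the test, with a median of -0.16. Slc4a4, which brings sodium and bicarbonate into the cell from the blood side, read 9.55, 9.29, 9.48 and 9.57 in the tamoxifen-labelled arrays and 11.58, 11.53, 11.74 and 11.48 in the NaCl-labelled ones (log2 difference -2.11, SE 0.096, 4.31-fold, limma adjusted p = 9.67e-07). Slc26a3, the apical exchanger of chloride for bicarbonate, read 11.53, 11.26, 11.40 and 11.33 in the tamoxifen-labelled arrays and 12.84, 13.02, 12.84 and 12.98 in the NaCl-labelled ones (log2 difference -1.54, SE 0.068, 2.9-fold, limma adjusted p = 7.92e-07). Car4, a carbonic anhydrase of the brush border, read 12.25, 12.11, 12.22 and 12.08 in the tamoxifen-labelled arrays and 13.38, 13.54, 13.39 and 13.43 in the NaCl-labelled ones (log2 difference -1.27, SE 0.055, 2.41-fold, limma adjusted p = 7.92e-07). Each of the 3 was tight within its group and far apart between groups. The cytosolic carbonic anhydrase Car2 (-0.85) and the sulfate carrier Slc26a2 (-1.06) also fell. The members that rose were the basolateral importer Slc12a2 (0.38) of sodium, potassium and chloride, which serves secretion, and Car12 (0.37). The chloride channel Cftr (0.11) and the sodium and proton exchanger Slc9a3 (0.39) did not pass the test. Car12 lost its call without mutant_tam replicate 1, 2, 3 or 4 or mutant_nacl replicate 1, 2, 3 or 4 (limma adjusted p 0.0614 to 0.146).

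Sodium uptake through the aldosterone-controlled channel followed the same direction, with no member called higher: 0 of 18 measured members rose, 12 fell and 6 did not pass the test. The median was -0.34, and single differences ran from -1.59 to 0.44. Scnn1g, the γ subunit of the epithelial sodium channel, read 10.12, 10.07, 9.80 and 10.38 in the tamoxifen-labelled arrays and 11.75, 11.72, 11.76 and 11.51 in the NaCl-labelled ones (log2 difference -1.59, SE 0.125, 3.02-fold, limma adjusted p = 3.37e-05). The wild-type tamoxifen arrays gave 10.46, 11.58 and 10.83, of which 1 lay inside the NaCl-labelled range and the others between both mutant groups. Among the other subunits Scnn1b (-0.73) fell and Scnn1a (-0.25) did not pass the test. Fxyd4, a regulator of the sodium pump, read 8.60, 8.86, 8.47 and 9.07 in the tamoxifen-labelled arrays and 9.97, 10.11, 10.10 and 10.24 in the NaCl-labelled ones (log2 difference -1.36, SE 0.128, 2.56-fold, limma adjusted p = 9.67e-05). The receptor itself, Nr3c2 (-0.64), fell, and so did Hsd11b2 (-0.84), which keeps glucocorticoids off it, and the hormone-responsive factor Klf9 (-0.58). Scnn1b and the target kinase Sgk1 (-1.18), which fell too, were named after their values were seen. Without mutant_tam replicate 4 the list median was -0.46. Scnn1b lost its call without mutant_nacl replicate 4 (limma adjusted p 0.0563).

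Water channels split. Aqp4, a basolateral water channel, read 10.73, 10.74, 10.88 and 10.48 in the tamoxifen-labelled arrays and 8.95, 9.24, 8.68 and 8.34 in the NaCl-labelled ones (log2 difference 1.90, SE 0.242, 3.74-fold, limma adjusted p = 0.00049), without overlap, and was the only one of 6 to rise. Aqp8, the abundant channel of surface colonocytes, read 11.39, 11.21, 11.46 and 10.94 in the tamoxifen-labelled arrays and 12.22, 12.58, 12.03 and 12.10 in the NaCl-labelled ones (log2 difference -0.98, SE 0.132, 1.97-fold, limma adjusted p = 0.000691). Aqp1 (-0.53), Aqp11 (-0.57) and Aqp7 (-0.30) fell too, and Aqp3 (-0.07) did not pass the test. The Aqp7 call was lost without mutant_tam replicate 2, 3 or 4 or control_tam replicate 2 or 3 or mutant_nacl replicate 2, 3 or 4 (log2 difference -0.32 to -0.21, limma adjusted p 0.0507 to 0.171).

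Vdr and its target S100g were lower. Vdr, the vitamin D receptor, read 11.72, 11.44, 11.50 and 11.06 in the tamoxifen-labelled arrays and 12.55, 12.45, 12.36 and 12.49 in the NaCl-labelled ones (log2 difference -1.03, SE 0.111, 2.05-fold, limma adjusted p = 0.000189). Its target S100g, the calcium-binding protein calbindin-D9k, read 8.06, 8.41, 7.33 and 7.29 in the tamoxifen-labelled arrays and 9.74, 9.67, 9.77 and 9.24 in the NaCl-labelled ones (log2 difference -1.83, SE 0.186, 3.57-fold, limma adjusted p = 0.000142), and the wild-type arrays were higher than both at 11.15, 11.54 and 11.32. The apical calcium channel Trpv6 (-1.28), the phosphate carrier Slc20a1 (-0.91) and the partner receptor Rxra (-0.19) fell, and the phosphate carrier Slc34a1 (0.22) rose. In all, 1 of 15 measured members rose, 5 fell and 9 did not pass the test, with a median of -0.09. Rxra lost its call without mutant_tam replicate 2, 3 or 4 or control_tam replicate 2 or 3 or mutant_nacl replicate 1, 2, 3 or 4 (limma adjusted p 0.053 to 0.125).

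**Figure D3:**
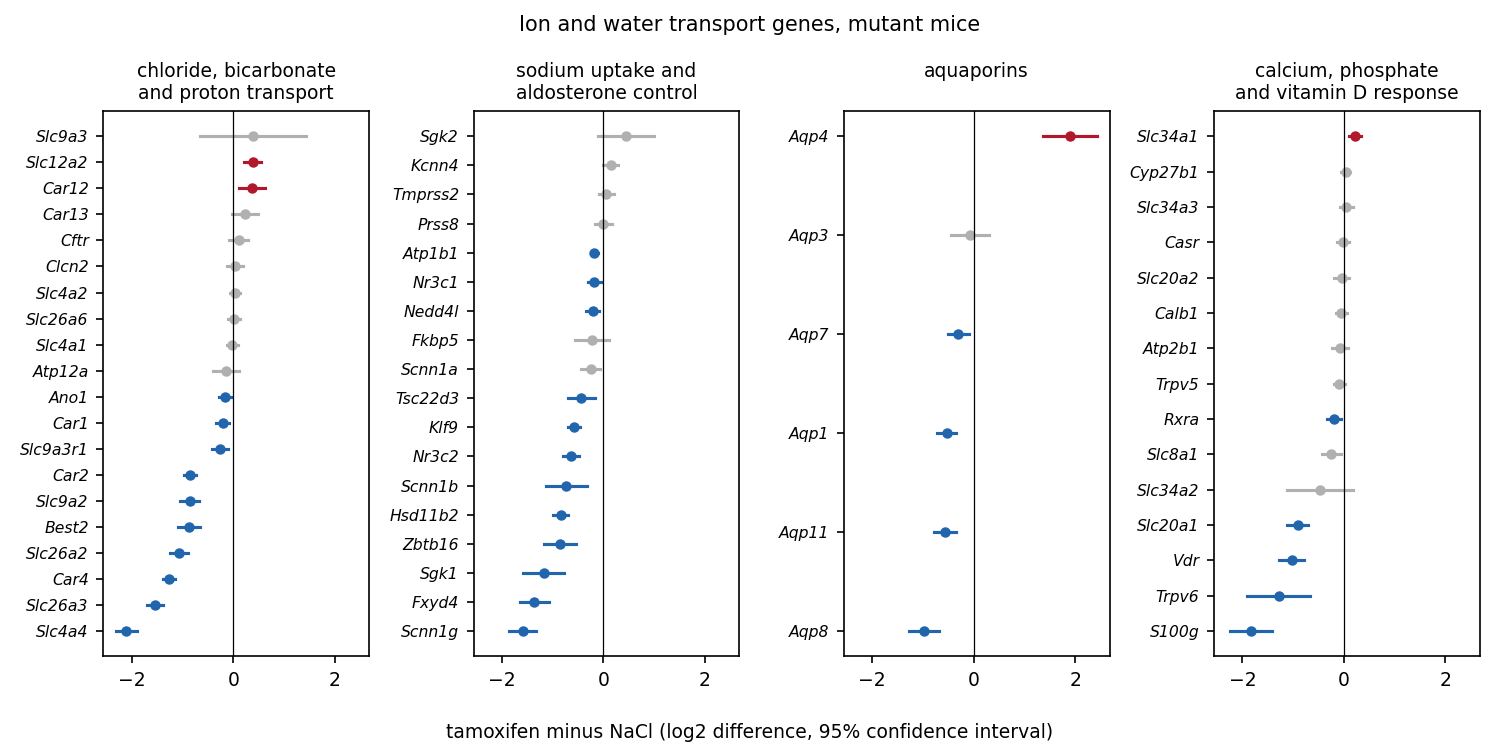
Points are the tamoxifen minus NaCl log2 difference of each measured member of 4 transport lists, with its 95% confidence interval from limma, where red rose, blue fell and grey did not pass an adjusted p of 0.05. Slc4a4 at -2.11, S100g at -1.83 and Scnn1g at -1.59 lie farthest to the left, and Aqp4 at 1.90 farthest to the right.

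Colonocytes live largely on butyrate, and genes of its uptake and oxidation fell more often than they rose: 3 of 27 measured members rose, 11 fell and 13 did not pass the test, with a median of -0.18. Ppargc1a, the coactivator that drives mitochondrial and fat-burning genes, read 10.02, 9.93, 9.67 and 9.57 in the tamoxifen-labelled arrays and 11.23, 10.93, 10.85 and 11.03 in the NaCl-labelled ones (log2 difference -1.21, SE 0.117, 2.32-fold, limma adjusted p = 0.000109). The butyrate carrier Slc5a8 (-0.98), the mitochondrial acetyl-CoA synthetase Acss1 (-0.55), the β-oxidation enzyme Hadh (-0.26) and the nuclear receptor Ppara (-0.49) fell. The receptor Pparg (0.52), the lactate exporter Slc16a3 (0.52) and the short-chain fatty acid receptor Ffar2 (0.47) rose. Of the subunits of the respiratory chain, 2 of 29 measured members rose, 1 fell and 26 did not pass the test. Those called were Ndufa4 (0.38) and Ndufs3 (0.16), which were higher, and Cox7a1 (-0.56), which was lower, and the Ndufs3 call was lost without mutant_tam replicate 3 or mutant_nacl replicate 1, 3 or 4 (log2 difference 0.12 to 0.15, limma adjusted p 0.0525 to 0.0802).

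Drug-metabolising enzymes were among the genes that fell. In the list of xenobiotic receptors and their targets 2 of 26 measured members rose, 10 fell and 14 did not pass the test, with a median of -0.08 that was -0.23 without mutant_tam replicate 4 and -0.05 without mutant_nacl replicate 4. The pregnane X receptor Nr1i2, which many steroid-like drugs activate, read 9.98, 10.08, 10.10 and 9.89 in the tamoxifen-labelled arrays and 10.28, 10.25, 10.35 and 10.23 in the NaCl-labelled ones (log2 difference -0.26, SE 0.056, 1.2-fold, limma adjusted p = 0.00734). The constitutive androstane receptor Nr1i3 read 6.61, 6.48, 6.58 and 6.85 in the tamoxifen-labelled arrays and 6.67, 6.92, 6.69 and 7.06 in the NaCl-labelled ones, and its values overlapped (log2 difference -0.20, SE 0.098, 1.15-fold, limma adjusted p = 0.168). Cyp3a11, a liver target of the pregnane X receptor, was near the bottom of the signal range, between 4.45 and 4.52 in all 8 arrays. Beside Cyp2c55 and Cyp2d12, Cyp3a13 (-1.11), Cyp2d26 (-0.87), the aldehyde dehydrogenase Aldh1a1 (-0.78) and the drug efflux pump Abcb1a (-0.77) fell, while the pump Abcg2 (0.38) and the haem synthesis enzyme Alas1 (0.25) rose. Alas1 lost its call without mutant_tam replicate 1, 3 or 4 or mutant_nacl replicate 1, 2 or 4 (limma adjusted p 0.0661 to 0.125).

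Conjugating enzymes also fell more often than they rose: 3 of 29 measured members rose, 14 fell and 12 did not pass the test (median -0.19, but -0.12 without mutant_nacl replicate 4 and -0.11 in the 6 female mutant arrays alone). Sult1a1, which adds sulfate to phenols and to tamoxifen metabolites, read 8.61, 8.33, 8.56 and 8.92 in the tamoxifen-labelled arrays and 10.46, 10.50, 10.44 and 10.47 in the NaCl-labelled ones (log2 difference -1.86, SE 0.109, 3.63-fold, limma adjusted p = 6.2e-06). Sult1d1 (-0.87), the carboxylesterase Ces2a (-1.02), the glutathione transferase Gstt1 (-0.91) and the glucuronosyltransferase Ugt2b34 (-0.39) fell. Those that rose, Mgst2 (0.35), Mgst3 (0.22) and Gsta3 (0.44), are glutathione transferases, and their count was 1 without mutant_tam replicate 3 or in the 6 female mutant arrays alone. Gsta3 lost its call without mutant_tam replicate 1, 2, 3 or 4 or mutant_nacl replicate 1 or 3, and Mgst2 without mutant_tam replicate 3 (limma adjusted p 0.0571 to 0.0892).

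The oestrogen receptors themselves did not pass the test. Esr1 read 8.00, 8.10, 7.76 and 8.14 in the tamoxifen-labelled arrays and 7.93, 8.17, 8.23 and 7.92 in the NaCl-labelled ones, with overlapping values (log2 difference -0.06, SE 0.123, 1.04-fold, limma adjusted p = 0.777). Esr2, the main receptor of colon epithelium, read 6.68, 6.66, 6.97 and 6.81 in the tamoxifen-labelled arrays and 7.01, 6.97, 6.90 and 7.02 in the NaCl-labelled ones, and 1 tamoxifen-labelled value lay inside the NaCl-labelled range (log2 difference -0.20, SE 0.066, 1.15-fold, limma adjusted p = 0.0543). Of oestrogen-responsive genes 5 of 22 measured members rose, 1 fell and 16 did not pass the test. Those that rose were lactoferrin (Ltf, 1.82), which neutrophils also carry, the secreted factors Ccn5 (0.64), Igfbp4 (0.63), Stc2 (0.71) and Igf1 (0.45), and the one that fell was the small heat shock protein Hspb1 (-0.42). The median was -0.02.

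In the list of hemidesmosome and laminin adhesion genes 7 of 17 measured members rose, 3 fell and 7 did not pass the test (median 0.17, but 0.11 without mutant_nacl replicate 1). Itgb4, the partner of integrin α6 in hemidesmosomes, read 11.60, 11.59, 11.73 and 11.83 in the tamoxifen-labelled arrays and 11.14, 11.10, 11.17 and 11.29 in the NaCl-labelled ones (log2 difference 0.51, SE 0.062, 1.43-fold, limma adjusted p = 0.000376). Lamb3, a chain of laminin-332, to which that integrin binds, read 11.19, 11.13, 11.30 and 11.58 in the tamoxifen-labelled arrays and 10.54, 10.48, 10.49 and 10.62 in the NaCl-labelled ones (log2 difference 0.77, SE 0.084, 1.7-fold, limma adjusted p = 0.00021), and its partner chain Lama3 (0.82) rose alike. The laminin receptor subunit Itga3 (0.44) and the linker Plec (0.48) rose too. The members that fell were Lamb2 (-0.42), Dst (-0.27) and Bcam (-0.18), and this count was 1 without mutant_tam replicate 2 or 3 or mutant_nacl replicate 2 or 4. Bcam lost its call without mutant_tam replicate 2, 3 or 4 or control_tam replicate 2 or 3 or mutant_nacl replicate 1, 2 or 4, and Dst without mutant_tam replicate 2 or 3 or mutant_nacl replicate 2, 3 or 4 (limma adjusted p 0.0516 to 0.127).

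Of the simple keratins, the filament proteins that hemidesmosomes and desmosomes anchor, 6 of 8 measured members rose, 0 fell and 2 did not pass the test. Krt7, a keratin of ductal epithelia, read 12.00, 12.19, 11.99 and 12.27 in the tamoxifen-labelled arrays and 10.82, 10.54, 10.76 and 10.84 in the NaCl-labelled ones (log2 difference 1.37, SE 0.096, 2.59-fold, limma adjusted p = 1.69e-05), and Krt18 (0.37) rose less. The count of 6 was 3 without mutant_tam replicate 3 or mutant_nacl replicate 3. In adherens junctions and desmosomes 7 of 19 measured members rose, 2 fell and 10 did not pass the test. The desmosomal proteins Dsc2 (0.63), Pkp2 (0.47) and Pkp3 (0.45) rose, and Cdhr2 (-0.53) and Cdhr5 (-0.42), which link neighbouring microvilli of the brush border, fell. In the tight junction list 2 of 16 measured members rose, 1 fell and 13 did not pass the test. Cldn4 read 11.70, 11.49, 11.66 and 12.30 in the tamoxifen-labelled arrays and 10.08, 10.29, 10.62 and 10.82 in the NaCl-labelled ones (log2 difference 1.33, SE 0.191, 2.52-fold, limma adjusted p = 0.000935). The other calls there were small, with Tjp3 (0.17) higher and Ocln (-0.24) lower. They were lost, for Tjp3 without mutant_tam replicate 1, 2 or 3 or mutant_nacl replicate 1, 2 or 4 (log2 difference 0.14 to 0.17, limma adjusted p 0.0746 to 0.0915), and for Ocln without mutant_tam replicate 1, 2 or 3 or mutant_nacl replicate 1, 2, 3 or 4 (log2 difference -0.26 to -0.20, limma adjusted p 0.052 to 0.137).

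Genes associated with wounded and fetal-like gut epithelium rose together: 14 of 21 measured members rose, 0 fell and 7 did not pass the test, with a median of 0.48. Beside Mmp7 and Cldn4, the cornified envelope protein Sprr2h (1.35), the annexins Anxa8 (1.04) and Anxa2 (0.48) and the stromelysin Mmp10 (1.41) rose. Some ligands of the EGF receptor family also rose. Nrg1, a ligand of ErbB3 and ErbB4, read 9.36, 9.22, 9.61 and 9.72 in the tamoxifen-labelled arrays and 7.93, 8.14, 8.51 and 8.20 in the NaCl-labelled ones (log2 difference 1.29, SE 0.139, 2.44-fold, limma adjusted p = 0.000192), and Hbegf, a ligand of the EGF receptor, read 10.57, 8.95, 10.48 and 9.92 in the tamoxifen-labelled arrays and 8.33, 8.31, 8.62 and 8.51 in the NaCl-labelled ones (log2 difference 1.53, SE 0.271, 2.9-fold, limma adjusted p = 0.00281), with mutant_tam replicate 2 close to the NaCl-labelled range. The receptor Egfr read 10.29, 10.40, 10.47 and 10.62 in the tamoxifen-labelled arrays and 9.86, 9.86, 10.06 and 10.01 in the NaCl-labelled ones (log2 difference 0.50, SE 0.073, 1.41-fold, limma adjusted p = 0.00112). In that list 6 of 14 measured members rose, 0 fell and 8 did not pass the test, and the count of 6 was 3 without mutant_nacl replicate 1 or 2. With the lowest 50% of genes left out, 8 of the wound-associated members were called.

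Matrix genes rose more often than they fell. In all, 13 of 26 measured members rose, 4 fell and 9 did not pass the test (median 0.29). Timp1, an inhibitor of metalloproteinases that is induced in inflammation, read 9.30, 9.13, 9.20 and 9.16 in the tamoxifen-labelled arrays and 7.60, 8.05, 8.08 and 7.59 in the NaCl-labelled ones (log2 difference 1.37, SE 0.111, 2.58-fold, limma adjusted p = 3.91e-05), whereas Timp2 (-0.41) and Timp3 (-0.58), named after their values were seen, fell. The proteases Mmp3 (0.87), Mmp9 (0.73), Mmp14 (0.49) and Adamts4 (0.79) rose. The count of 13 was 8 in the 6 female mutant arrays alone. Smooth muscle genes fell in the same arrays: 0 of 15 measured members rose, 15 fell and 0 did not pass the test, with a median of -0.47. Pcp4 read 10.90, 10.64, 10.50 and 10.67 in the tamoxifen-labelled arrays and 11.61, 11.63, 11.69 and 11.80 in the NaCl-labelled ones (log2 difference -1.01, SE 0.076, 2.01-fold, limma adjusted p = 2.72e-05), and calponin Cnn1 (-0.43) and the filament protein Synm (-0.88) fell. The mean over the smooth muscle list was 11.37 to 11.51 in the tamoxifen-labelled and 11.81 to 12.12 in the NaCl-labelled arrays, without overlap. Enteric neuron and glia markers had 5 of 11 lower and 1 higher, and no difference in that list was above 0.21. Among those lower were Stmn2 (-0.96), Uchl1 (-0.39) and Vip (-0.40). The count of 5 was 3 without mutant_tam replicate 2 or 3 or mutant_nacl replicate 3 or 4 or in the 6 female mutant arrays alone. How deep each sample was cut is not in the labels, and the part of muscle tissue in other differences was not tested.

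DNA replication was the only pathway list in which every measured member rose: 31 of 31, with a median of 0.51, against 12.5% of all genes. The count of 31 was 21 to 31 when 1 array was left out and 24 to 31 in the other settings. Single differences ran from 0.25 to 0.83. Lig1, the ligase that joins Okazaki fragments, read 9.33, 9.34, 9.46 and 9.31 in the tamoxifen-labelled arrays and 8.80, 8.70, 8.59 and 8.85 in the NaCl-labelled ones (log2 difference 0.63, SE 0.081, 1.54-fold, limma adjusted p = 0.000546). Rrm2, the ribonucleotide reductase subunit that supplies deoxynucleotides, read 9.95, 9.92, 10.15 and 10.05 in the tamoxifen-labelled arrays and 9.42, 9.12, 9.05 and 9.15 in the NaCl-labelled ones (log2 difference 0.83, SE 0.130, 1.78-fold, limma adjusted p = 0.00148). Mcm7 (0.51) of the replicative helicase, Gins1 (0.60) of its activator complex and Rfc3 (0.51) of the clamp loader rose without overlap. The list mean was 9.07 to 9.23 in the tamoxifen-labelled arrays, 8.54 to 8.76 in the NaCl-labelled and 8.26 to 8.70 in the wild-type arrays.

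Promoters of replication genes often carry sites for E2F factors, which start S phase. TTTGGCGC or TTTCGCGC, read on both strands, was found in 11 of 26 members with a promoter sequence (42.3%) and in 251 of 27025 genes of the table (0.929%), in windows from 250 bases before to 50 after the start (RefSeq, GRCm38.p6). Motif and list were chosen after the values were known, and a match is a description, not a site. The promoters of Rfc3 and Pola1, whose match lies before the start, show it in capitals in the 250 bases upstream, 5′ to 3′. Rfc3 lies at chr5:151651209-151651458, minus strand, and Pola1, the catalytic subunit of DNA polymerase α, which rose by 0.44, at chrX:93632156-93632405, minus strand, where the capitals are the motif's reverse complement.
Rfc3: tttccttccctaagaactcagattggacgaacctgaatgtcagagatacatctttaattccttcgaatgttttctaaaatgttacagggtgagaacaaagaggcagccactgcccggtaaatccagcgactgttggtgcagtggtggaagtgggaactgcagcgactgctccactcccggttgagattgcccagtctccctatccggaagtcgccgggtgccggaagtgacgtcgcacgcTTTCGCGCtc
Pola1: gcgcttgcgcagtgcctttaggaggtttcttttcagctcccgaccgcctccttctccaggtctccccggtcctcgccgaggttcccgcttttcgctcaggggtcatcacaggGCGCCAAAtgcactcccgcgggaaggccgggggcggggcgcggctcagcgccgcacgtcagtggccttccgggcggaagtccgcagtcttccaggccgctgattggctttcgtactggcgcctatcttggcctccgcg

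Mitosis genes were higher as well but less firmly: 18 of 29 measured members rose, 0 fell and 11 did not pass the test, with a median of 0.46. Birc5, survivin, read 8.73, 8.86, 8.58 and 8.85 in the tamoxifen-labelled arrays and 8.01, 8.28, 8.12 and 8.24 in the NaCl-labelled ones (log2 difference 0.59, SE 0.110, 1.51-fold, limma adjusted p = 0.0036), and Kif23 (0.69), Bub1 (0.79), Cdk1 (0.57) and Ttk (0.51) rose, whereas the proliferation marker Mki67 read 11.51, 11.67, 11.32 and 11.50 in the tamoxifen-labelled arrays and 11.14, 11.26, 11.25 and 11.54 in the NaCl-labelled ones, with overlap (log2 difference 0.20, SE 0.122, 1.15-fold, limma adjusted p = 0.285). The count of 18 was 7 without mutant_tam replicate 2 or mutant_nacl replicate 1 or 3, 8 without mutant_tam replicate 4 or mutant_nacl replicate 2, 10 without mutant_tam replicate 1 and 28 in the 6 female mutant arrays alone. Genes of ribosome assembly rose in part, as 14 of 21 measured members rose, 0 fell and 7 did not pass the test (median 0.32), among them the nucleolar methyltransferase fibrillarin Fbl (0.40) and nucleophosmin Npm1 (0.35). Crypt stem cell and Wnt target genes did not rise as a group, since 4 of 22 measured members rose, 7 fell and 11 did not pass the test. Lgr5, the stem cell marker, read 8.27, 8.30, 7.98 and 7.80 in the tamoxifen-labelled arrays and 7.66, 7.77, 7.57 and 7.40 in the NaCl-labelled ones, without overlap but short of the threshold (log2 difference 0.49, SE 0.160, 1.4-fold, limma adjusted p = 0.0507). The Wnt feedback genes Rnf43 (-0.42) and Tnfrsf19 (-0.40) and the coreceptor Rgmb (-0.39) fell, and Prom1 (0.55) rose.

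Genes for protein folding in the endoplasmic reticulum rose where they changed: 12 of 27 measured members rose, 0 fell and 15 did not pass the test, with a median of 0.19. Dnajc3, a cochaperone that restrains a stress kinase, read 11.11, 11.11, 11.11 and 11.01 in the tamoxifen-labelled arrays and 10.67, 10.67, 10.80 and 10.36 in the NaCl-labelled ones (log2 difference 0.46, SE 0.074, 1.38-fold, limma adjusted p = 0.00169). The secreted stress proteins Creld2 and Manf rose by 0.53 and 0.34. The count of 12 was 4 without mutant_nacl replicate 4 and 6 without mutant_tam replicate 3 or in the 6 female mutant arrays alone, and mutant_nacl replicate 4 was the lowest array for this list, with a mean of 10.28 against 10.51 to 10.53 in the other NaCl-labelled arrays. The endoplasmic reticulum stress element, CCAAT and CCACG with 9 bases between them, was found in 8 of 23 members with a promoter sequence (34.8%) and in 37 of 27025 genes (0.137%). Of those 8 members, 5 were called, beside 12 of 27 in the whole list (44.4%) and 12.5% of all genes that rose. Among the 5, Hspa5 (0.28) and Hsp90b1 (0.25) lost their calls when 1 of several arrays was left out (limma adjusted p 0.0511 to 0.104). This motif too was chosen after the values were known. It is in capitals in the 250 bases upstream of Dnajc3 (chr14:118937682-118937931, plus strand) and, as the reverse complement, of Creld2 (chr15:88819396-88819645, plus strand), from RefSeq on GRCm38.p6.
Dnajc3: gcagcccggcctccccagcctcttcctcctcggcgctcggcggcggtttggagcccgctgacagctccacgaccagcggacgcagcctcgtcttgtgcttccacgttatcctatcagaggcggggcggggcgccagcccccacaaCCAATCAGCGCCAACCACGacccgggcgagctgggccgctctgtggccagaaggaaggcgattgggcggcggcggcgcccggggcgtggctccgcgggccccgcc
Creld2: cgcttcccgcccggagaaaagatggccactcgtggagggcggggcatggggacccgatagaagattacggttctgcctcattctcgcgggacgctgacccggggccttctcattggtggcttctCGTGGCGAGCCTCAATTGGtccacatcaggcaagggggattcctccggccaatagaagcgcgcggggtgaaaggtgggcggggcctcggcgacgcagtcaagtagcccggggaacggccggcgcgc

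Biosynthetic enzymes rose beside them. In the serine, asparagine and one-carbon list 12 of 18 measured members rose, 2 fell and 4 did not pass the test (median 0.32). Mthfd2, a mitochondrial folate enzyme that feeds nucleotide synthesis, read 8.62, 8.74, 8.74 and 8.63 in the tamoxifen-labelled arrays and 8.06, 7.95, 7.93 and 7.62 in the NaCl-labelled ones (log2 difference 0.79, SE 0.105, 1.73-fold, limma adjusted p = 0.000618), and Phgdh (0.55), the first step of serine synthesis, Shmt2 (0.55), Aldh1l2 (0.56) and Mthfd1l (0.79) rose, while Cth (-0.43) and Gpt2 (-0.48) fell. Slc7a11, which imports cystine for glutathione, read 8.87, 9.04, 8.79 and 9.25 in the tamoxifen-labelled arrays and 7.88, 7.42, 7.23 and 7.27 in the NaCl-labelled ones (log2 difference 1.54, SE 0.176, 2.9-fold, limma adjusted p = 0.000282). In the antioxidant list 8 of 19 measured members rose, 1 fell and 10 did not pass the test, among them Txnrd1 (0.49), Gsr (0.46), Pgd (0.47) and Akr1b8 (0.68), and catalase Cat (-0.28) fell. Amino acid transporters went both ways (8 of 22 rose, 5 fell), with Slc7a7 (0.60) and Slc3a1 (1.06) higher and Slc1a1 (-1.14) and Slc1a5 (-0.45) lower. Of cholesterol synthesis genes only Pmvk (0.74) was called of 20, although the list median was 0.31. Leaving out 1 array gave medians from 0.18 (without mutant_tam replicate 3) to 0.39 (without mutant_nacl replicate 4). The count of 1 was 11 without control_tam replicate 1, 6 without control_tam replicate 2 and 2 without mutant_tam replicate 4. It was 14 in the 8 mutant arrays alone, 13 in those arrays with no sex term, 13 in the 6 female mutant arrays alone and 3 with array weights. Gpt2 lost its call without mutant_tam replicate 2, 3 or 4 or mutant_nacl replicate 1, 2, 3 or 4 (limma adjusted p 0.051 to 0.115).

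Goblet cell genes did not change in 1 direction: 8 of 25 measured members rose, 4 fell and 13 did not pass the test. Muc2, the main mucin of the colon, read 13.43, 13.57, 13.42 and 13.32 in the tamoxifen-labelled arrays and 13.21, 13.17, 13.26 and 13.11 in the NaCl-labelled ones, a small increase without overlap (log2 difference 0.25, SE 0.050, 1.19-fold, limma adjusted p = 0.00495). Clca4b read 13.22, 13.34, 13.25 and 13.11 in the tamoxifen-labelled arrays and 10.91, 11.33, 10.87 and 11.68 in the NaCl-labelled ones (log2 difference 2.03, SE 0.341, 4.1-fold, limma adjusted p = 0.00216), and the goblet peptide Spink4 read 13.26, 13.24, 13.23 and 12.98 in the tamoxifen-labelled arrays and 12.43, 12.46, 12.46 and 12.07 in the NaCl-labelled ones (log2 difference 0.82, SE 0.085, 1.77-fold, limma adjusted p = 0.000158). The vesicle protein Sytl2 (0.70) and the disulfide isomerase Agr2 (0.28) rose. Those that fell, Tff3 (-0.28), Muc3 (-0.23), Zg16 (-0.22) and Agr3 (-0.18), did so by small amounts, and their count was 2 without mutant_tam replicate 3 or mutant_nacl replicate 1 or 4. Enzymes that build mucin glycans rose more often than they fell: 13 of 32 measured members rose, 5 fell and 14 did not pass the test. Galnt3, which starts O-glycans, read 10.77, 10.89, 10.89 and 10.95 in the tamoxifen-labelled arrays and 9.59, 9.42, 9.80 and 9.56 in the NaCl-labelled ones (log2 difference 1.28, SE 0.108, 2.43-fold, limma adjusted p = 4.37e-05), and Galnt12 (0.80) and C1galt1 (0.43) rose with it. B4galnt2, which caps colonic glycans, read 11.09, 10.73, 10.29 and 10.24 in the tamoxifen-labelled arrays and 12.01, 12.08, 12.10 and 11.57 in the NaCl-labelled ones (log2 difference -1.35, SE 0.165, 2.55-fold, limma adjusted p = 0.000388). The count of 5 that fell was 3 without mutant_tam replicate 3 or mutant_nacl replicate 2, 3 or 4 or in the 6 female mutant arrays alone. Agr3 lost its call without mutant_tam replicate 1 or 3 or mutant_nacl replicate 1 or 4, and Tff3 without mutant_tam replicate 3 or mutant_nacl replicate 1, 2, 3 or 4 (limma adjusted p 0.0512 to 0.0931). Without mutant_tam replicate 4 the Tff3 difference was -0.19.

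Genes that present antigen on MHC class II were lower. In the MHC class II list 0 of 10 measured members rose, 7 fell and 3 did not pass the test, with a median of -0.88, the lowest of the 53 lists. H2-Aa, a class II α chain, read 11.90, 11.46, 11.69 and 10.93 in the tamoxifen-labelled arrays and 12.65, 12.91, 12.43 and 12.73 in the NaCl-labelled ones (log2 difference -1.18, SE 0.190, 2.27-fold, limma adjusted p = 0.00174), with mutant_tam replicate 4 lowest. H2-Ab1 (-1.14), H2-DMa (-1.28) and Cd74 (-0.89), which load and carry peptides, fell, and Ctss, the protease that trims their chaperone, read 11.10, 11.16, 11.09 and 10.86 in the tamoxifen-labelled arrays and 11.62, 11.54, 11.53 and 11.52 in the NaCl-labelled ones (log2 difference -0.50, SE 0.062, 1.41-fold, limma adjusted p = 0.000425). List means were 9.53 to 10.39 in the tamoxifen-labelled and 10.64 to 11.10 in the NaCl-labelled arrays, with the wild-type arrays at 10.22 to 10.68. Cells that carry class II were also uneven: B cell list means ran from 7.03 to 9.19 within the NaCl-labelled group and 7.46 to 8.06 within the tamoxifen-labelled one, with none of 11 members past the test, and of macrophage and dendritic cell genes Xcr1 (-0.59) and Clec9a (-0.42) fell and Cd14 (0.64) and Itgam (0.32) rose. Without mutant_nacl replicate 4, 4 macrophage and dendritic cell genes were lower in place of 2. The part of these cells in the class II values was not tested. Itgam lost its call without mutant_tam replicate 1, 2, 3 or 4 or control_tam replicate 2 or mutant_nacl replicate 1, 2, 3 or 4 (limma adjusted p 0.054 to 0.132).

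Interferon-induced genes had 6 of 23 members called lower and none called higher, with a median of -0.29 that was -0.52 without mutant_nacl replicate 2. Gbp7, a guanylate-binding protein, read 9.46, 8.99, 8.93 and 8.73 in the tamoxifen-labelled arrays and 9.92, 9.61, 9.59 and 9.91 in the NaCl-labelled ones (log2 difference -0.73, SE 0.147, 1.66-fold, limma adjusted p = 0.00545). The count of 6 was 1 in the 6 female mutant arrays alone, 2 without mutant_tam replicate 3 or mutant_nacl replicate 4 and 3 without mutant_tam replicate 4 or mutant_nacl replicate 1. The NaCl-labelled array mutant_nacl replicate 1 stood high, with a list mean of 9.95 against 8.76 to 8.98 in the other NaCl-labelled arrays and 8.57 to 9.03 in the tamoxifen-labelled ones. Against the wild-type tamoxifen arrays the median of the tamoxifen-labelled group was 0.15 and none of these genes was called.

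Clock genes shifted. In the list of circadian clock and output genes 2 of 17 measured members rose, 11 fell and 4 did not pass the test, with a median of -0.42, and the hour at which tissue was taken is not in the labels. Ciart, a repressor of the clock, read 8.77, 8.73, 9.26 and 8.79 in the tamoxifen-labelled arrays and 10.27, 10.28, 9.91 and 10.32 in the NaCl-labelled ones (log2 difference -1.31, SE 0.113, 2.47-fold, limma adjusted p = 5.38e-05). Nr1d1, the nuclear receptor REV-ERBα, read 11.16, 11.59, 11.38 and 10.99 in the tamoxifen-labelled arrays and 12.38, 12.50, 12.56 and 12.25 in the NaCl-labelled ones (log2 difference -1.14, SE 0.124, 2.2-fold, limma adjusted p = 0.0002), and Dbp, an output factor, read 9.71, 9.50, 10.19 and 9.31 in the tamoxifen-labelled arrays and 10.90, 10.88, 10.72 and 10.71 in the NaCl-labelled ones (log2 difference -1.13, SE 0.134, 2.18-fold, limma adjusted p = 0.000343). The output factors Hlf (-0.59) and Tef (-0.50) fell with it. The members that rose, Nfil3 (0.71) and Cry1 (0.39), act as repressors of clock output. Arntl (0.19) and Clock (-0.02), the core activators, did not pass the test. List means were 9.02 to 9.31 in the tamoxifen-labelled arrays, 9.53 to 9.60 in the NaCl-labelled and 9.50 to 9.60 in the wild-type arrays, and the tamoxifen-labelled mutant arrays lay below the 7 others. Cry1 lost its call without mutant_tam replicate 3 or 4 or mutant_nacl replicate 2, 3 or 4 (limma adjusted p 0.0589 to 0.111).

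The E-box CACGTG, which Clock and Arntl bind, was found in 5 of 15 members with a promoter sequence (33.3%) and in 2187 of 27025 genes (8.09%). All 5 such members were called, but most of the list was: of 17 measured members 11 fell and 2 rose. The 5 did not share a direction, as Ciart, Tef, Bhlhe41 (-0.56) and Per1 (-0.54) fell and Cry1 (0.39) rose. Per1 lost its call without mutant_tam replicate 3 (limma adjusted p 0.0542). The motif reads the same on both strands and was chosen after the values were known. The 250 bases upstream of Ciart (chr3:95882229-95882478, minus strand) hold 3 copies, and those of Tef (chr15:81802423-81802672, plus strand) hold 1, in capitals (RefSeq, GRCm38.p6).
Ciart: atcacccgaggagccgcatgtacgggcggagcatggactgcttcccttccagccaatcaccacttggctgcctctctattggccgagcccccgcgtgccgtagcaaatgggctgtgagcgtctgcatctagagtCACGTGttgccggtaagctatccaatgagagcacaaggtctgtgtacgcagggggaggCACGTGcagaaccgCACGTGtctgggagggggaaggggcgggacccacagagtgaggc
Tef: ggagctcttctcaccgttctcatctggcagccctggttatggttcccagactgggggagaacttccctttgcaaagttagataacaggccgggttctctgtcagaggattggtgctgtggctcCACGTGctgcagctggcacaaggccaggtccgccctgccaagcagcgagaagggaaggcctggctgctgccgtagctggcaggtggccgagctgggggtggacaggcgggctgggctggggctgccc

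**Figure D4:**
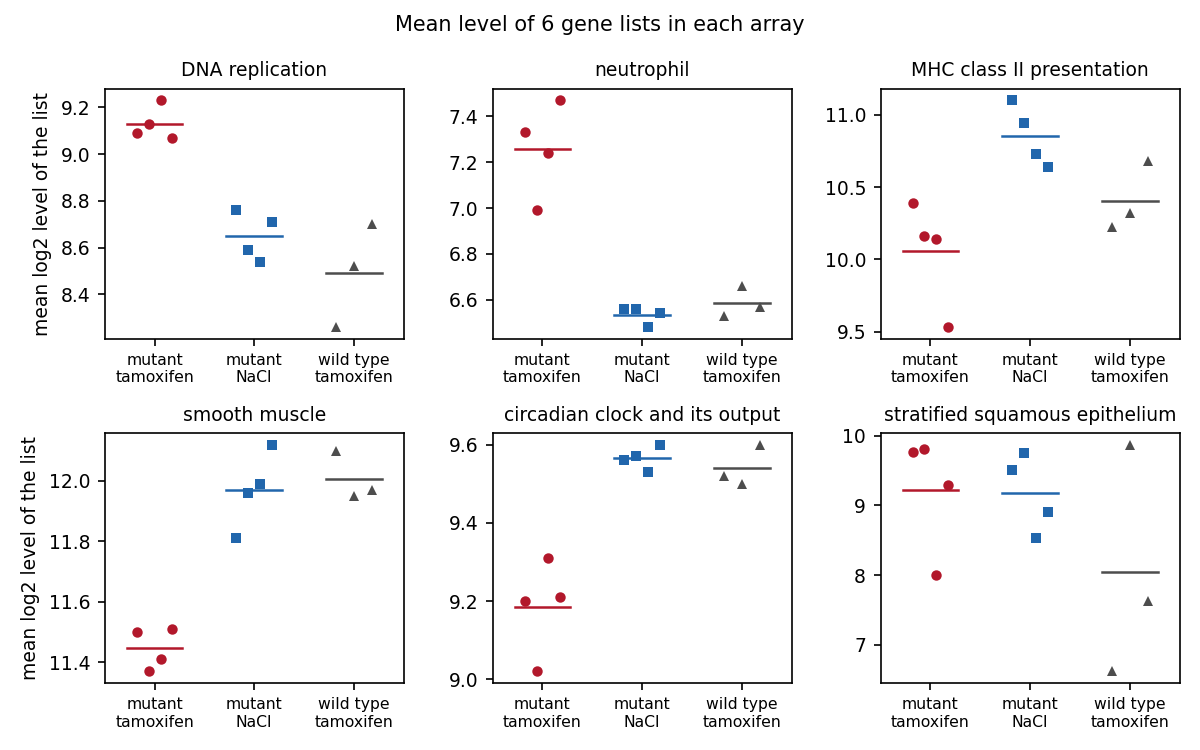
Each symbol is the mean log2 level over a list's measured members in 1 array, and lines are group means, for 6 lists in mutant tamoxifen (n = 4), mutant NaCl (n = 4) and wild-type tamoxifen (n = 3) arrays. The tamoxifen-labelled mutant arrays lie apart from the NaCl-labelled ones for replication, neutrophil, MHC class II, smooth muscle and clock genes, and squamous genes range from 8.00 to 9.80 within that group alone.

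Further marker lists of other cells varied in how many members passed the test, beside 12.5% of all genes that rose and 10.7% that fell. Of T and NK cell genes 1 of 16 was called, Foxp3 (0.27), a call lost without mutant_tam replicate 3 (log2 difference 0.21, limma adjusted p 0.0561). Without mutant_nacl replicate 4, 3 T and NK cell genes were lower. Endothelial genes had 1 of 13 lower, Lyve1 (-0.46), a lymphatic marker, lost without mutant_tam replicate 3 or mutant_nacl replicate 4 (log2 difference -0.39, limma adjusted p 0.052 to 0.0601). Plasma cell genes that rose were Prdm1 (0.69), Fkbp11 (0.41) and Sdc1 (0.35), of 10. Fibroblast genes divided evenly, since 5 of 14 measured members rose, 5 fell and 4 did not pass the test, with Pdgfra (0.41) higher and Gsn (-0.35) and Dpt (-0.30) lower. Those counts were 1 in the 6 female mutant arrays alone and 3 without mutant_tam replicate 1, 2 or 3 or after a second quantile normalization for the genes that rose, and 3 without mutant_tam replicate 3 or in the 6 female mutant arrays alone for those that fell. No squamous marker of 16 and no blood marker of 6 was called.

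**Figure D5:**
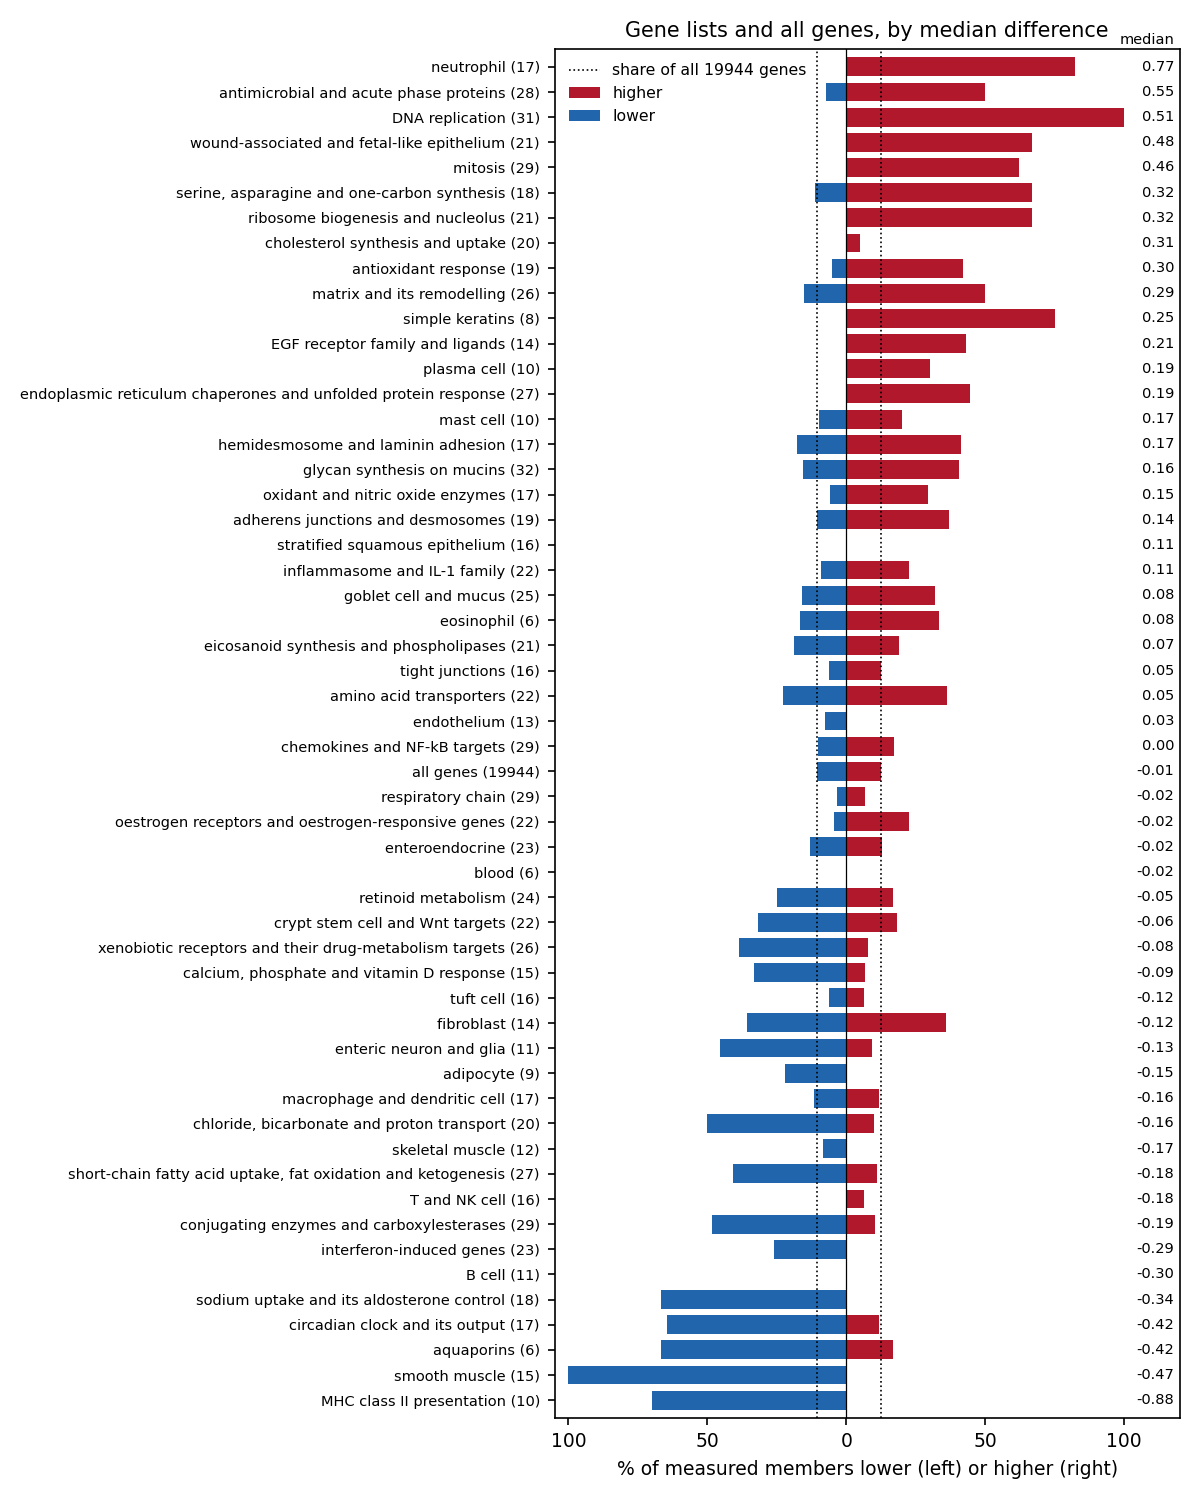
Bars give the share of each list's measured members (their number in brackets) that were higher (red, right) or lower (blue, left) at an adjusted p below 0.05, ordered by the median log2 difference printed at the right, where dotted lines mark the shares over all 19944 genes, 12.5% and 10.7%. DNA replication reaches 100% higher and smooth muscle 100% lower, and the medians run from 0.77 for neutrophil to -0.88 for MHC class II genes.

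The wild-type mice given tamoxifen received the drug without the mutant design, and their arrays enter the main fit only through its estimates of spread and sex. Tamoxifen-labelled mutants against these arrays had 4915 genes past the threshold (24.6%), and NaCl-labelled mutants against them had 0 by limma, with 1625 genes at an unadjusted p below 0.05 (8.15%). The comparisons share arrays, so their values are set side by side. For Retnlb the tamoxifen-labelled mutants stood 5.26 above the NaCl-labelled and 2.64 above the wild types. For Slc4a4 the differences were -2.11 and -2.23, for Lrg1 2.91 and 2.67, and for Ddah1 2.57 and 2.35. S100g differed by -1.83 and -3.76, and NaCl-labelled mutants against wild types by -1.93 (limma adjusted p = 0.053). Cyp2c55 differed by -3.06 and -4.43, with -1.37 between NaCl-labelled mutants and wild types (limma adjusted p = 0.399). A p above the threshold does not show that NaCl-labelled mutants and wild types are alike.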

How the data were processed

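RNA from rectal mucosa (RNeasy Midi kit) was read on 1 Affymetrix array per mouse (Mouse Gene 1.0 ST). The authors deposited log2 values per transcript cluster, made by RMA in Expression Console 1.1 after reading the images with Command Console 2.0, per the labels and the submitters' processing notes, which also name Partek without a role. RMA pulls all arrays to 1 distribution, so a shift shared by most genes cannot be seen. The genome build is not given in the sources used here.

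The table held 35556 clusters, of which the platform annotation lists 23410. Of these 21797 had 1 gene symbol and were used, 1613 had several and were left out, and 12146 clusters were not listed. Symbols were updated through the Entrez Gene number (21698 clusters, all unchanged), by symbol (76) or by accession (2), and 21 kept the platform's name. For 1001 genes with several clusters the cluster with the highest mean was kept, which gave 19944 genes.

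A linear model per gene, with a mean for each of the 3 groups and a sex term over all 11 arrays, was fitted with limma 3.58.1 in R 4.3.3 (eBayes with trend, two-sided), and p-values were adjusted by Benjamini-Hochberg over all genes. The labels give no test, no scan date and no batch, and replicate numbers follow sample order. The script was tested on simulated data for this comparison: of 19944 genes, 97 of 100 changed by 1 on the log2 scale and 92 of 100 changed by 0.5 were called, as were 8 of 19744 unchanged genes. The simulated noise was normal and independent between genes, with no sex effect and fewer changed genes than were called here. Its counts check the script and do not give the rate of false calls in the real arrays. Sex-linked genes matched the labelled sex in all 11 arrays, and 7 genes were past the threshold for the sex term.

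The 53 gene lists (1040 genes, 968 measured, 23 on more than 1 list) and the genes described were chosen with earlier results of these data known. Genes named were Itga6 and Itgb4, the 16 largest increases and 16 largest decreases among called genes whose groups did not overlap, the 5 members of each list with the smallest p (3 for lists of other cells), and Esr1, Esr2, Nr1i2, Nr1i3, Cyp3a11, Muc2, Lgr5, Mki67, Vdr and Ppara. Predicted genes, receptor segments, olfactory receptors, small RNAs, histone cluster, Y-linked genes and Xist stayed out of the largest changes. Up to 3 list members short of the threshold, the members of counts of 5 or fewer, and Epcam, Cdh1, Duox2, Pola1 and those marked in the text were named after their values were seen. Promoter sequences came from RefSeq (GRCm38.p6) and were matched by symbol. The alternatives were 11 fits that each left out 1 array and 12 other settings of normalization, dim-gene filter, variance model, arrays, sex term and cluster rule. Figures were drawn with matplotlib 3.10.9 in Python 3.11.15.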

Additional observations from a re-analysis of the deposited data

Results flagged for a closer look

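In groups of 4 arrays, an array is named here where its gap to the nearest of the others divided by the group's range was above Dixon's 95% critical value, which chance gives in about 1 of 20 groups. Of 620 groups looked at (named genes and list means in both mutant groups) 31 were named, so their number is close to what chance gives. All values are log2 levels, each set against the range of the 3 other arrays of its group, and no cause was tested.

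Mutant_tam replicate 4 was named most often in the tamoxifen-labelled group. It stood higher for Anxa8 (12.11 against 11.92 to 11.94), Cwh43 (11.29 against 10.82 to 10.86), the keratins Krt8 (14.07 against 14.00 to 14.01) and Krt23 (8.56 against 7.63 to 7.75) and the mean of the simple keratins (11.14 against 10.91 to 10.94). It stood lower for the goblet peptide Spink4 (12.98 against 13.23 to 13.26), the folding genes Creld2 (10.87 against 11.16 to 11.17) and Dnajc3 (11.01 against 11.11 in each of the others), the replication gene Gins1 (6.96 against 7.23 to 7.28) and Nos2 (7.70 against 9.06 to 9.29).

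Mutant_nacl replicate 4, the male of its group, stood lower for Creld2 (10.14 against 10.66 to 10.73), Pdia6 (9.30 against 9.94 to 10.02) and the mean of the endoplasmic reticulum folding list (10.28 against 10.51 to 10.53). The same array was lower for Spink4 (12.07 against 12.43 to 12.46), B4galnt2 (11.57 against 12.01 to 12.10) and Scnn1g (11.51 against 11.72 to 11.76), and higher for Prss30 (11.59 against 11.07 to 11.09) and the skeletal muscle enzyme Ckm (11.33 against 10.58 to 10.67).

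The clock repressor Ciart was apart in replicate 3 of both groups, higher in mutant_tam replicate 3 (9.26 against 8.73 to 8.79) and lower in mutant_nacl replicate 3 (9.91 against 10.27 to 10.32), where the number is only a name. Mutant_nacl replicate 3 was also higher for Chgb (9.75 against 9.46 to 9.50), the enteroendocrine mean (7.97 against 7.83 to 7.85) and the tight junction mean (10.30 against 10.19 to 10.20). Mutant_tam replicate 3 was lower for Ptger3 (6.97 against 7.02 to 7.03). Mutant_tam replicate 1 was higher for Cyp2d26 (8.28 against 7.88 to 7.95) and Mmp3 (7.13 against 6.63 to 6.70). Mutant_tam replicate 2 was lower for Neurog3 (6.30 against 6.71 to 6.78) and the mean of the EGF receptor ligands and family (8.66 against 8.97 to 8.99). Mutant_nacl replicate 1 was higher for the interferon-induced sensor Ifih1 (11.13 against 10.52 to 10.57) and lower for Lama3 (9.22 against 9.52 to 9.58) and Ddah1 (8.40 against 8.58 to 8.59).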

How the results depend on the processing

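The count of higher genes, 2498, ran from 1703 to 2666 when 1 array was left out, and that of lower genes, 2136, from 1447 to 2258. Without the males the counts were 1745 and 1460. The rule that named genes by largest change, smallest p in a list or fixed choice held 224 genes past the threshold. Of these, 190 kept their call in every setting that held them, and none reversed. Genes named only after their values were seen are outside this count, and some, such as Duox2 and Scnn1b, lost their calls. Itga6 kept its direction and call in all 23 settings. Centring each array on its median moved the median of all genes from -0.009 to 0.010. Leaving out dim genes changed list medians most, since it changes which members count: with the lowest 50% left out, 64 genes were at least 2-fold higher in place of 98, and medians were 1.40 for antimicrobial (0.83 with 25% out, 0.55 with all), -0.69 for calcium (-0.09), -0.58 for xenobiotic (-0.26 with 25% out, -0.08), -0.55 for aquaporin (-0.42), -0.37 for enteric neuron (-0.27 with 25% out, -0.13), 0.25 for goblet (0.08), -0.17 for enteroendocrine (-0.02) and 0.14 for amino acid transporter genes (0.10 with 25% out, 0.05). Simple keratins had 0.37 with 25% out (0.25), and amino acid transporters 0.09 with the mean over a gene's clusters. A second quantile normalization gave 0.10 for adherens junctions (0.14), and females alone gave -0.22 for short-chain fatty acid (-0.18) and 0.23 for antioxidant genes (0.30). Leaving out 1 array gave medians of 0.09 to 0.18 for adherens junctions, -0.46 to -0.30 for sodium uptake, -0.22 to -0.16 for short-chain fatty acids, -0.23 to -0.05 for xenobiotic genes, 0.18 to 0.39 for cholesterol synthesis, 0.22 to 0.35 for antioxidant and -0.09 to -0.02 for stem cell genes. The causes of these shifts were not tested. RMA values carry no detection call here, so the level below which a gene is background is unknown. No paired analysis was run, since each array came from a different mouse and the labels name no pairs.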

Other observations

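Genes of eicosanoid synthesis, the making and breakdown of prostaglandins and related lipids, changed in both directions: 4 of 21 measured members rose, 4 fell and 13 did not pass the test. Beside Pla2g2a, the phospholipase Pla2g4a (0.28), which frees arachidonic acid, rose, as did Pla2g2f (0.38) and the inducible cyclooxygenase Ptgs2 (1.05). The enzyme that degrades prostaglandins, Hpgd, read 11.70, 11.47, 11.57 and 11.60 in the tamoxifen-labelled arrays and 12.27, 12.09, 11.98 and 12.01 in the NaCl-labelled ones, without overlap (log2 difference -0.50, SE 0.069, 1.42-fold, limma adjusted p = 0.000745). The prostaglandin receptor Ptger3 (-0.56), prostacyclin synthase Ptgis (-0.39) and the lipoxygenase Alox15 (-0.92) fell. The count of 4 that rose was 2 without mutant_tam replicate 1 or 3 or mutant_nacl replicate 2. The Pla2g2f call was lost without mutant_tam replicate 1, 2 or 3 or mutant_nacl replicate 1, 2, 3 or 4 (log2 difference 0.29 to 0.40, limma adjusted p 0.0517 to 0.111). The Ptgs2 call was lost without mutant_tam replicate 1, 3 or 4 or mutant_nacl replicate 1, 2 or 4 (log2 difference 0.79 to 1.08, limma adjusted p 0.0572 to 0.0978). The Ptgis call was lost without mutant_tam replicate 3 or mutant_nacl replicate 4 (log2 difference -0.32 to -0.30, limma adjusted p 0.0572 to 0.0642).

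Retinoid genes changed in both directions: 4 of 24 measured members rose, 6 fell and 14 did not pass the test. Aldh1a3, which makes retinoic acid, had a group mean of 10.79 ± 0.128 against 9.15 ± 0.168 (SD, n = 4 each), without overlap (log2 difference 1.64, SE 0.124, 3.12-fold, limma adjusted p = 2.72e-05), and the retinol dehydrogenase Rdh10 (0.88) rose like Dhrs9, which the largest increases include. Retsat, a retinol saturase, read 9.02, 8.95, 8.91 and 8.94 in the tamoxifen-labelled arrays and 9.81, 9.97, 9.73 and 9.89 in the NaCl-labelled ones (log2 difference -0.90, SE 0.064, 1.86-fold, limma adjusted p = 1.9e-05), and the other retinoic acid-making enzyme Aldh1a1 fell by 0.78. The count of 6 that fell was 3 without mutant_tam replicate 2.

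Enteroendocrine genes had small differences: 3 of 23 measured members rose, 3 fell and 17 did not pass the test. The peptide processing enzyme Cpe (-0.72) fell most, and Sst (-0.39) and Chga (-0.26) fell while Cck (0.27), Chgb (0.34) and Neurog3 (0.34) rose. The count of 3 that rose was 0 without mutant_nacl replicate 4 or in the 6 female mutant arrays alone and 1 without mutant_tam replicate 3 or mutant_nacl replicate 2 or with the lowest 50% of genes left out, and the count of 3 that fell was 1 without mutant_tam replicate 2 or 4. Of these genes, only Cpe kept its call in every fit that left out 1 array. The Cck call was lost without mutant_nacl replicate 3 or 4 (log2 difference 0.24 to 0.25, limma adjusted p 0.0569 to 0.0621). The Chgb call was lost without mutant_tam replicate 3 or mutant_nacl replicate 2 or 4 (log2 difference 0.27 to 0.31, limma adjusted p 0.051 to 0.0637). The Neurog3 call was lost without mutant_tam replicate 1, 3 or 4 or mutant_nacl replicate 2, 3 or 4 (log2 difference 0.27 to 0.37, limma adjusted p 0.0508 to 0.134). The Sst call was lost without mutant_tam replicate 2, 3 or 4 or mutant_nacl replicate 2, 3 or 4 (log2 difference -0.42 to -0.32, limma adjusted p 0.0539 to 0.0917). The Chga call was lost without mutant_tam replicate 1, 2, 3 or 4 or control_tam replicate 3 or mutant_nacl replicate 1 or 4 (log2 difference -0.28 to -0.25, limma adjusted p 0.0559 to 0.104). Without mutant_nacl replicate 3 the Chga difference was -0.17.

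Of 16 tuft cell genes the actin-binding Avil (0.68) rose and the prostaglandin D synthase Hpgds (-0.66) fell. Of 10 mast cell genes the mucosal protease Mcpt1 (1.48) and the chymase Cma1 (0.54) rose and Kit (-0.41) fell, but Mcpt1 and Kit lost their calls when 1 of several arrays was left out, without mutant_tam replicate 1, 2 or 3 or control_tam replicate 2 or mutant_nacl replicate 2, 3 or 4 (log2 difference 1.23 to 1.48, limma adjusted p 0.0561 to 0.148) and without mutant_tam replicate 2, 3 or 4 or mutant_nacl replicate 1, 2 or 3 (log2 difference -0.41 to -0.34, limma adjusted p 0.0521 to 0.0703). Of 6 eosinophil genes Il5ra (0.34) and Prg2 (0.25) rose and Alox15 fell, and the calls were lost for Il5ra without mutant_tam replicate 1 or mutant_nacl replicate 3 or 4 (log2 difference 0.27 to 0.33, limma adjusted p 0.0534 to 0.0814) and for Prg2 without mutant_tam replicate 1, 3 or 4 or control_tam replicate 1, 2 or 3 or mutant_nacl replicate 2, 3 or 4 (log2 difference 0.17 to 0.28, limma adjusted p 0.0573 to 0.127). Without mutant_tam replicate 3 the Il5ra difference was 0.21. Of 12 skeletal muscle genes Ckm (-0.76) fell, a call lost without mutant_tam replicate 3 or 4 or mutant_nacl replicate 1, 2, 3 or 4 (log2 difference -0.82 to -0.46, limma adjusted p 0.0594 to 0.138). Of 9 adipocyte genes Pck1 and Slc7a10 (-0.16) fell, and that of Slc7a10 was lost without mutant_tam replicate 1, 2, 3 or 4 or control_tam replicate 1, 2 or 3 or mutant_nacl replicate 1, 2 or 4 (log2 difference -0.17 to -0.13, limma adjusted p 0.0551 to 0.123).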
